A study of Homo sapiens with 5 samples.

Results

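Genes used as markers of tumour-propagating (stem-like) cells were examined on 5 Affymetrix arrays of PC-3 cells, a line established from a bone metastasis of a human prostate carcinoma and able to grow without androgen. The set held 10 listed genes: the surface proteins CD44, CD24, PROM1, EPCAM and TSPAN8, the aldehyde dehydrogenases ALDH1A1 and ALDH1A3, the transcription factors SOX2 and SOX9, and the Polycomb protein BMI1. Every probe set that the platform annotation assigns to 1 gene symbol was taken, which gave 31 of the 54675 probe sets on the array and covered 9 of the 10 genes. BMI1 had no probe set with a single symbol and has no value here. The arrays were 1 of PC-3 cells from spheroids (cells grown as rounded clusters rather than a flat layer), 1 of PC-3 cells from flat 2D culture, 2 of PC-3 lines with different short hairpin RNAs against TRIB1 (labelled shTRIB1-1 and shTRIB1-2, genotype TRIB1 depletion) and 1 of a PC-3 line with a hairpin against GFP (shGFP, genotype control). All 5 share the cell line, and the labels give no further treatment. The same protocol of growth in dishes is recorded for every sample, even the spheroids, and the labels do not say whether a hairpin line was 1 clone or a pool. Only the TRIB1 label has 2 arrays, so differences between spheroid and 2D have no replicate check.

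Solid tumours are thought to hold a subset of cells able to start a new tumour, and such cells are usually sorted by surface proteins or by enzyme activity. CD44, the hyaluronan receptor, with low CD24, a small glycoprotein anchored in the membrane by lipid, is a classical sorting scheme in breast and prostate tumours. PROM1 (CD133) is a membrane protein of cell protrusions, ALDH1A1 and ALDH1A3 oxidise retinaldehyde to retinoic acid and give cells the activity that fluorescent aldehyde dehydrogenase assays read, and SOX2, SOX9 and BMI1 act in self-renewal of stem and progenitor cells. EPCAM is an epithelial adhesion protein, and TSPAN8 is a tetraspanin, a membrane organiser that is also carried on exosomes.

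The 3 genes whose lead probe set (the brightest of a gene's probe sets by its mean over the arrays) differed at least 2-fold between spheroid and 2D are shown first by their promoters, since CD24 and TSPAN8 were both higher in the spheroid array and ALDH1A3 was lower. The sequences are the 250 bases before the most upstream annotated start, 5′ to 3′, from RefSeq on GRCh38.p14, and capitals mark CG dinucleotides. Of the 10 genes, 8 had a promoter in that table.
CD24, chr6:106975628-106975877, minus strand: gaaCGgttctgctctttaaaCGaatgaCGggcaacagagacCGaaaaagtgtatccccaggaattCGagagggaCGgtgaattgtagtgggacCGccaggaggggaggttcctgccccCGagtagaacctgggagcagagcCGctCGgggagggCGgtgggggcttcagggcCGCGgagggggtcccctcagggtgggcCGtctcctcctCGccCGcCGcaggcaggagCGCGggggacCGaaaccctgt
TSPAN8, chr12:71158000-71158249, minus strand: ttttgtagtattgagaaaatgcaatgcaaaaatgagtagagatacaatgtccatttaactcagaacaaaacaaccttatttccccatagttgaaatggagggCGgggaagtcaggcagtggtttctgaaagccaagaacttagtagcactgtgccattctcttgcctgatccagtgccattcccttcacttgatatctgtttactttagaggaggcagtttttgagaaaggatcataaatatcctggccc
ALDH1A3, chr15:100879581-100879830, plus strand: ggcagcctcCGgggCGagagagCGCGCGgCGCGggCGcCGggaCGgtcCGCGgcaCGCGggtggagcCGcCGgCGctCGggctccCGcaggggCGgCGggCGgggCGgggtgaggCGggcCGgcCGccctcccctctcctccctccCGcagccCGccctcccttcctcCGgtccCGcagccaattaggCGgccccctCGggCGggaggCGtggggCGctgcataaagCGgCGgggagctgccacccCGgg
These promoters differ widely in base composition. The CD24 window holds 20 CG dinucleotides, more than 67.6% of 35116 human promoter windows of the same length. The TSPAN8 window holds 1, more than 6.06% of them, and the ALDH1A3 window holds 38, more than 96.7%. The 2 genes that were higher in the spheroid array thus do not share a CG class. The letters TATAAA, searched on both strands, occur in none of the 3 windows and in 10.7% of all windows. CCAAT on either strand occurs once in the ALDH1A3 window and in 32.0% of all windows. CACCTG on either strand, which ZEB and Snail repressors are known to bind, occurs in none of the 3 and in 17.5% of all. CD24 has 3 annotated starts and TSPAN8 has 2, and the window before the most downstream CD24 start does hold 1 CACCTG and 1 CCAAT. No match overlapped another. These are matches of letters in 1 window for each gene, and they say nothing about binding.

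A level is the log2 of the deposited RMA intensity. The median level was between 5.04 and 5.06 on the 5 arrays, and a probe set at 6 or above (intensity 64) on any compared array was taken as clear of background. The cut is a choice, and levels little above it may still be background. The prostate luminal marker KLK3 read 6.90 on all 5 arrays, an exact tie. TRIB1 itself had a level of 11.91 on the array labelled shTRIB1-1 and 11.76 on that labelled shTRIB1-2, against 11.97 on shGFP. On the 2D array it read 11.04 and on the spheroid array 11.23, both below the arrays labelled as TRIB1 hairpins. These values show no clear depletion of its messenger RNA, so every direction given for the hairpins is that of the labelled array. The 5′ to 3′ signal ratio of actin, a measure of RNA and labelling quality, was 0.131 on the spheroid array and 0.184 on the 2D array. It was 0.445, 0.442 and 0.436 on the shTRIB1-1, shTRIB1-2 and shGFP arrays, and by this ratio the hairpin arrays stand apart from the other 2. By the same ratio of GAPDH the spheroid and 2D arrays were also below the hairpin arrays. Here 2D lay closer to the hairpin arrays than to the spheroid array. The GAPDH ratio was 0.763 on the spheroid array and 0.895 on 2D, and 0.935, 0.929 and 0.944 on shTRIB1-1, shTRIB1-2 and shGFP. Both ratios were lowest on the spheroid array, and their part in the differences below was not tested. All 5 epithelial and PC-3 markers (KRT8, KRT18, KRT19, CDH1 and VIM) were present on every array. Their summed intensity was 14553 in the spheroid array and 20009 in 2D, and between 20383 and 22452 on the hairpin arrays. In spheroid minus 2D, 4 of the 5 were lower and 1 higher, none 2-fold, with a median of -0.57. KRT8 read 9.39 in the spheroid array and 10.17 in 2D, KRT19 read 10.87 in the spheroid array and 11.66 in 2D, and CDH1 read 10.59 in the spheroid array and 10.51 in 2D. The part of these markers in the spheroid results was not tested. None of the 3 blood, 4 endothelial and 5 fibroblast markers measured reached a level of 6 on any array. In the spheroid and 2D arrays the summed intensities of those markers were 92.0 and 93.5 for blood, 88.2 and 91.6 for endothelium, and 173.9 and 123.4 for fibroblasts. COL3A1, a fibrillar collagen, was at 5.80 in the spheroid array and 3.82 in 2D, and its part in any result was not tested.

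**Figure D1:**
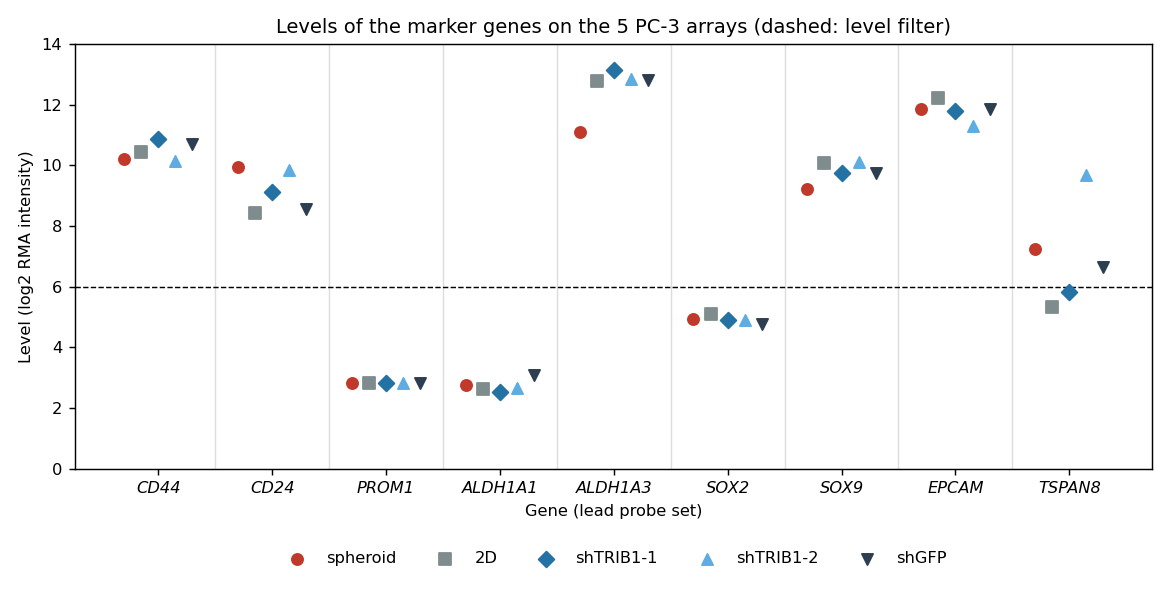
Level (log2 RMA intensity, vertical axis) of the lead probe set of each of the 9 measured genes on the 5 arrays, 1 point per array, with the level filter of 6 as a dashed line. CD24 is high in the spheroid and shTRIB1-2 arrays, ALDH1A3 is low in the spheroid array alone, TSPAN8 spans 4.37, and PROM1, ALDH1A1 and SOX2 stay below 6 on all arrays.

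Of the 31 probe sets, 21 reached a level of 6 on at least 1 array, and they belong to 6 genes. CD24, CD44, ALDH1A3, SOX9, EPCAM and TSPAN8 therefore carry the results. PROM1, ALDH1A1 and SOX2 did not reach 6 anywhere. The single PROM1 probe set read 2.82 on every array, an exact tie like that of the dim CD44 probe set 234418_x_at. ALDH1A1 lay between 2.53 and 3.10 on its 1 probe set. The 4 SOX2 probe sets lay between 2.71 and 5.10. For these 3 genes a signal was not distinguished from background under any condition, and their differences are not interpreted.

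CD24 was higher in the spheroid array on every one of its 6 probe sets. Its lead probe set, 209771_x_at, had a level of 9.95 in the spheroid array and 8.44 in the 2D array, which is 2.84-fold. Over the 6 probe sets the difference ran from 1.12 to 1.70 on the log2 scale, with a median of 1.53. The probe set with the largest difference, 208650_s_at, stood at 8.12 in the spheroid array and 6.43 in 2D. The spheroid array was also above the shGFP array, by 1.37 for the lead probe set and by 1.04 to 1.91 over all 6. In 2D CD24 was above the filter on 5 of its probe sets, of which 208650_s_at, at 6.43, was little above it. The other, 209772_s_at, was at 6.53 in the spheroid array and 5.41 in 2D. That probe set differed by 0.53 with levels below 6 set to 6, and 5 of the 6 were at least 2-fold higher.

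The hairpin arrays showed CD24 above shGFP as well. The lead probe set read 9.11 on the array labelled shTRIB1-1 and 9.86 on that labelled shTRIB1-2, against 8.58 on shGFP. Over the 5 probe sets that passed the level filter here, the difference from shGFP was 0.54 to 0.90 with shTRIB1-1 and 0.80 to 1.41 with shTRIB1-2. Both hairpin differences use the same shGFP array, and a deviation of that array would enter both. Over the same 5 probe sets the shGFP minus 2D difference was between -0.23 and 0.16. The 2D array is not labelled as a hairpin line, and its actin ratio was 0.184 against 0.436 on shGFP. Whether the shGFP array deviates was therefore not tested by it. The mean difference from shGFP was 0.91 ± 0.53 (SD, n = 2) for the lead probe set, and limma did not call it (adjusted p = 0.966). For 208650_s_at, on which the hairpin arrays differed by 0.04, the mean difference was 0.78 with a standard error of 0.086, an unadjusted limma p of 0.0126 and an adjusted p of 0.966. In order of level the lead probe set ran from the spheroid array over shTRIB1-2, shTRIB1-1 and shGFP to 2D. On that probe set the gap between shGFP and 2D (0.13) is smaller than the SD between the 2 hairpin arrays. So is the gap between spheroid and shTRIB1-2. That SD comes from 2 different hairpin lines and is no measure of array noise. The other probe sets varied: spheroid and shTRIB1-2 read 9.95 and 9.78 on 216379_x_at and 8.39 and 8.23 on 208651_x_at. They read 8.68 and 8.19 on 266_s_at, 8.12 and 7.16 on 208650_s_at, and 6.53 and 5.68 on 209772_s_at.

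**Figure D2:**
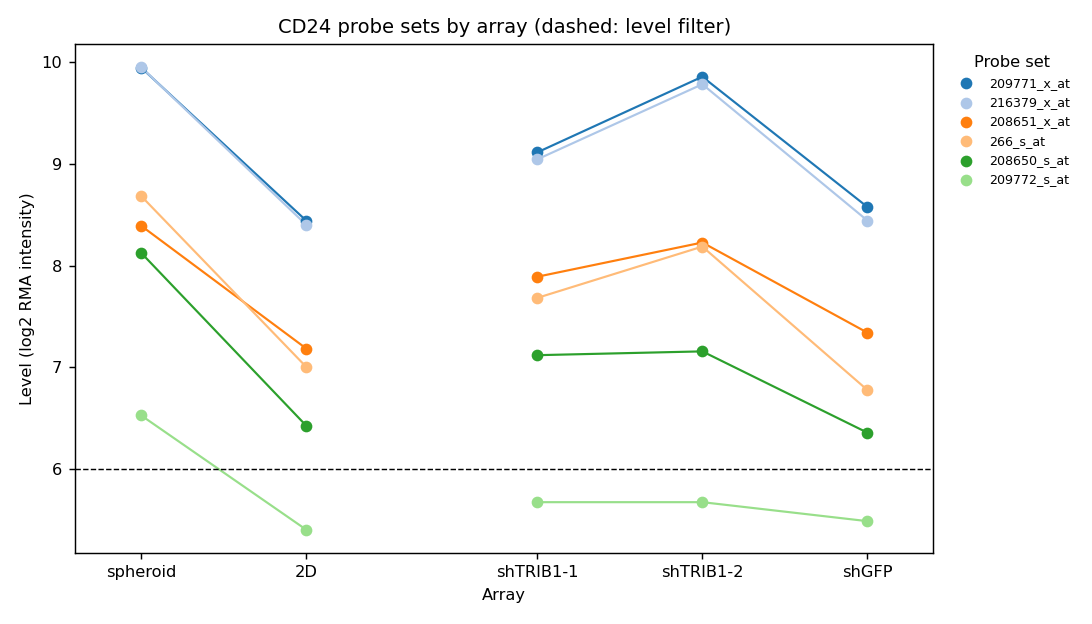
Level (log2 RMA intensity) of each of the 6 CD24 probe sets on the 5 arrays, 1 line per probe set, with spheroid and 2D joined on the left and the hairpin arrays joined on the right. Every line is higher at spheroid than at 2D, by 1.12 to 1.70, and no line is lower at a hairpin against TRIB1 than at shGFP.

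All 6 CD24 probe sets carry the suffix _s_at or _x_at, which Affymetrix gives to probe sets that match several transcripts or hold probes that may bind others. CD24 has retrocopies elsewhere in the human genome, so signal of CD24 and of its copies cannot be told apart here. Among 230 genes with at least 5 probe sets above the level filter, 3 had all of them higher by 2-fold or more in spheroid than in 2D, and these were CD24, MALAT1 and MYLIP. With levels below 6 set to 6 no gene met this in full, and the same 3 had at least 80% of their probe sets 2-fold higher. That criterion was chosen after the CD24 values were seen.

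TSPAN8 varied most of the 9 genes, and the 2 hairpin arrays lay on opposite sides of shGFP. Its 1 probe set read 7.24 in the spheroid array and 5.32 in the 2D array, a difference of 1.91 (3.76-fold). The level in 2D lies below the filter, so the size of this difference rests on a signal near background. The shGFP line read 6.64, which is 1.32 above that level in 2D. With levels below 6 set to 6, the spheroid array was 1.24 and shGFP 0.64 above 2D. Against shGFP the spheroid array was higher by 0.59 only. On the array labelled shTRIB1-2 TSPAN8 stood at 9.70, and on the array labelled shTRIB1-1 at 5.84. The differences from shGFP were 3.05 with shTRIB1-2 and -0.81 with shTRIB1-1. The level with shTRIB1-1 also lies below the filter. Set to 6, it put shTRIB1-1 at -0.64 from shGFP and shTRIB1-2 above shTRIB1-1 by 13.0-fold. The mean difference of 1.12 ± 2.73 (SD, n = 2) was not called by limma (adjusted p = 0.974), and its sign depends on which hairpin is kept. In order of level, shTRIB1-2 came first, then spheroid, shGFP, shTRIB1-1 and 2D. All gaps between neighbours in that order were smaller than the SD of 2.73 between the hairpin arrays. That SD comes from 2 different hairpin lines, with spheroid and shGFP lying between them. It is therefore no measure of array noise, and the comparison does not show that the order is within noise. Prostate luminal markers had a summed intensity of 240.0 with shTRIB1-1 and 308.5 with shTRIB1-2, against 238.9 on shGFP. Of the 4 measured, KLK2 and ACP3 were below 6 everywhere and KLK3 read 6.90 on every array. TMPRSS2, a luminal serine protease, read 6.07 with shTRIB1-1 and 7.09 with shTRIB1-2, against 6.09 on shGFP, and its part in the TSPAN8 values was not tested.

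CD44 hardly differed between spheroid and 2D but separated the 2 hairpin lines. Its lead probe set, 212063_at, had a level of 10.20 in the spheroid array and 10.43 in 2D. Over the 9 CD44 probe sets above the filter, the spheroid minus 2D difference lay between -0.28 and 0.20, 2 of them higher and 7 lower, and none reached 2-fold. On the array labelled shTRIB1-1 the lead probe set read 10.86, and on that labelled shTRIB1-2 it read 10.14, against 10.70 on shGFP. With shTRIB1-1, 9 of 9 probe sets were above shGFP, by 0.16 to 1.36. With shTRIB1-2, 8 of 8 were below shGFP, by 0.19 to 0.55. Both sets of differences use the same shGFP array, which itself differed from 2D by -0.88 to 0.76, 6 probe sets higher and 3 lower. The -0.88 rests on a shGFP level below the filter. Against 2D the direction with shTRIB1-2 was mixed. On 1557905_s_at shTRIB1-2 read 8.11 and 2D 7.66, whereas the lead probe set was lower with shTRIB1-2 than in 2D. Between the hairpin arrays, the level with shTRIB1-2 was below that with shTRIB1-1 on all 9 probe sets, and at least 2-fold below on 8 of them. One of the 8, 217523_at, read 4.65 with shTRIB1-2, below the filter, and 6.52 with shTRIB1-1. It differed by 0.52 with levels below 6 set to 6, and 7 of the 9 then passed 2-fold.

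The lead CD44 probe set was 1.64-fold lower with shTRIB1-2. The widest difference with levels below 6 set to 6 was that of 229221_at, at 5.97 with shTRIB1-2 and 7.70 with shTRIB1-1, which then differed 3.24-fold. Probe set 204490_s_at read 9.83 with shTRIB1-1 and 8.62 with shTRIB1-2, against 8.91 on shGFP, while the spheroid array had 8.42 and 2D 8.53. On that probe set the shTRIB1-1 array was the highest of the 5, and the 4 others lay between 8.42 and 8.91. CD44 is spliced into many isoforms, and the exons that each probe set reads are not stated in the files or labels. A further 4 CD44 probe sets stayed between 2.58 and 4.39 on all arrays and carry little information. No replicate exists for either hairpin, so the difference between them has no test. Limma, which takes the hairpins as replicates, gave adjusted p values from 0.974 to 0.988 for the 9 probe sets. Of 226 genes with at least 5 probe sets above the filter, 4 had at least 80% of them 2-fold lower with shTRIB1-2 than with shTRIB1-1, namely CD44, CTSB, GLIPR1 and VCAN, a criterion chosen after the CD44 values were seen. CTSB, GLIPR1 and VCAN also met it with levels below 6 set to 6, and CD44, then with 7 of 9, did not. VCAN encodes versican, a matrix proteoglycan that binds hyaluronan. The basal marker KRT15 ran opposite to CD44, at 7.77 with shTRIB1-1 and 9.47 with shTRIB1-2, against 9.34 on shGFP. Of the 3 basal markers measured, KRT5 and KRT14 stayed below 6 on all arrays. The summed intensity of the 3 was 270.2 with shTRIB1-1 and 760.1 with shTRIB1-2, against 704.7 on shGFP, and its part in the CD44 values was not tested.

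**Figure D3:**
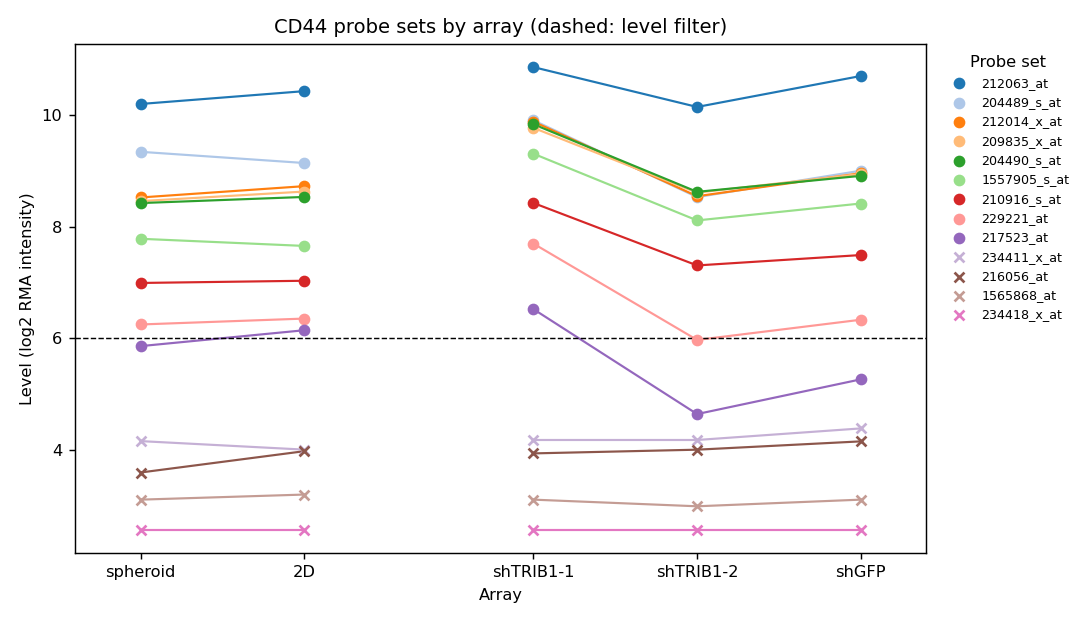
Level (log2 RMA intensity) of the 13 CD44 probe sets on the 5 arrays, 1 line per probe set, with crosses for the 4 that stay below the filter of 6 everywhere. The lines of the 9 others are nearly flat between spheroid and 2D and peak at shTRIB1-1, above both shTRIB1-2 and shGFP.

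EPCAM had 1 probe set, with a high signal throughout. Its level was 11.86 in the spheroid array and 12.23 in 2D, a difference of -0.37. On the hairpin arrays it was 11.78 with shTRIB1-1 and 11.28 with shTRIB1-2, against 11.86 on shGFP. The lower levels with both hairpins gave a mean difference of -0.33 ± 0.35 (SD, n = 2), smaller than its SD and not called by limma (adjusted p = 0.966). That SD comes from 2 different hairpin lines set against the same shGFP array, and it is no measure of array noise. The shGFP array was itself 0.37 below 2D and had the same value as the spheroid array, so the spheroid level lay within the range of the 2 control arrays.

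ALDH1A3 was lower in the spheroid array than on any other array. Its lead probe set, 203180_at, stood at 11.08 in the spheroid array and 12.78 in 2D, a difference of -1.70 (3.25-fold lower). The 4 other arrays were close together: 13.14 with shTRIB1-1, 12.84 with shTRIB1-2 and 12.81 with shGFP, a range of 0.35 with 2D included. The shGFP line differed from 2D by 0.02, and the spheroid array was 1.72 below shGFP. With the hairpins the mean difference from shGFP was 0.18 ± 0.21 (SD, n = 2), which limma did not call (adjusted p = 0.966). The other ALDH1A3 probe set, 1558649_at, ran the other way. It read 6.56 in the spheroid array and 5.81 in 2D, and it stayed between 5.31 and 5.89 on the hairpin arrays. The 2 probe sets thus disagree on direction in the spheroid array. That of 203180_at is far above background on every array, and that of 1558649_at crosses the level filter in the spheroid array alone. Which transcripts each one reads was not tested.

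SOX9 was lower in the spheroid array on both of its probe sets, 1 of which passed 2-fold. Probe set 202935_s_at read 9.21 in the spheroid array and 10.08 in 2D, a difference of -0.88. Probe set 202936_s_at read 9.18 in the spheroid array and 10.30 in 2D, a difference of -1.12. The shGFP line was also below 2D, by 0.32 and 0.54, so the spheroid array was below shGFP by 0.55 and 0.57. The hairpin arrays lay on either side of shGFP. For 202936_s_at the level was 9.29 with shTRIB1-1 and 10.18 with shTRIB1-2, against 9.76 on shGFP. For the lead probe set the mean difference from shGFP was 0.16 ± 0.25 (SD, n = 2), not called by limma (adjusted p = 0.966). In order of level 202936_s_at ran from 2D over shTRIB1-2, shGFP and shTRIB1-1 to the spheroid array. Every gap between neighbours was smaller than the SD of 0.62 between the hairpin arrays. That SD comes from 2 different hairpin lines, with shGFP lying between them, and is no measure of array noise.

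The marker set as a whole was read against all probe sets with 1 gene symbol. In spheroid minus 2D, 7 of the 21 marker probe sets above the filter were at least 2-fold higher, where the share among 18423 probe sets was 5.52%. Those 7 are 6 probe sets of CD24 and 1 of TSPAN8, so they stand for 2 genes and are not 7 independent readings. At least 2-fold lower were 2 marker probe sets, of ALDH1A3 and SOX9, against 4.93% of all. By lead probe set, 2 of 6 genes were at least 2-fold higher and 1 of 6 at least 2-fold lower, where 5.05% and 5.23% of 10570 genes were. A filter of this kind admits a probe set through the array on which it is high, which favours differences among those admitted. The median difference was -0.04 for the marker probe sets and -0.0034 for all. The median size of the difference regardless of sign was 0.75 for the marker probe sets and 0.31 for all. Of the 21 marker probe sets, 9 were of CD44 and 6 of CD24, so these genes weigh most in the marker medians. The 0.75 is the value of 1 probe set, ALDH1A3 1558649_at, which differed by 0.56 with levels below 6 set to 6. The markers were also chosen with earlier results of these data known. These medians therefore do not show that the markers differ more than other genes. Because RNA came from whole cultures, fewer cells of a type and less RNA per cell cannot be told apart in any of these values.

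Against shGFP, none of the 19 marker probe sets above the filter was at least 2-fold higher on both arrays labelled as hairpins against TRIB1, where 0.334% of 18252 probe sets were. None was at least 2-fold lower on both, where 0.0877% were. On shTRIB1-1 alone 2 of 19 were at least 2-fold higher, both of CD44, where the share was 2.31%. One of them, 217523_at, rests on a shGFP level of 5.27, and with levels below 6 set to 6 only the other passed. On shTRIB1-2 alone 4 of 18 were at least 2-fold higher, 3 of CD24 and 1 of TSPAN8, where the share was 1.22%. No marker probe set was 2-fold lower on either hairpin array, where 1.7% of all were with shTRIB1-1 and 0.839% with shTRIB1-2. Limma called 0 of 18252 probe sets (smallest adjusted p = 0.966), and 598 (3.28%) had an unadjusted p under 0.05, 1 of them a marker probe set, the CD24 probe set 208650_s_at. That fit has 1 residual degree of freedom, which comes from the 2 arrays of different hairpins, since shGFP has 1 array. Its p-values rest on the spread between those 2 arrays, which may be technical, and on a variance that limma draws from all probe sets. Between the hairpin arrays, 8 of 19 marker probe sets were at least 2-fold lower with shTRIB1-2 than with shTRIB1-1, where 2.35% of all were, and 1 was higher, where 2.78% were. All 8 lower ones were of CD44 and the higher one was TSPAN8. With levels below 6 set to 6 the marker counts were 7 and 1, where 1.82% and 2.27% of all were.

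By median size, the differences of these markers were smaller in shGFP minus 2D than in spheroid minus 2D. CD44 was an exception, from -0.88 to 0.76 in shGFP minus 2D and from -0.28 to 0.20 in spheroid minus 2D. The -0.88 rests on a shGFP level below the filter. EPCAM differed by -0.37 in both comparisons. In shGFP minus 2D, 1 of 19 marker probe sets, that of TSPAN8, was at least 2-fold higher, where 1.97% of 18094 probe sets were. It did not pass with levels below 6 set to 6. None was 2-fold lower, where 2.75% of all were. The median size of the difference was 0.27 for the marker probe sets and 0.22 for all. This comparison crosses the 2 sets of arrays that the actin ratio separates.

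**Figure D4:**
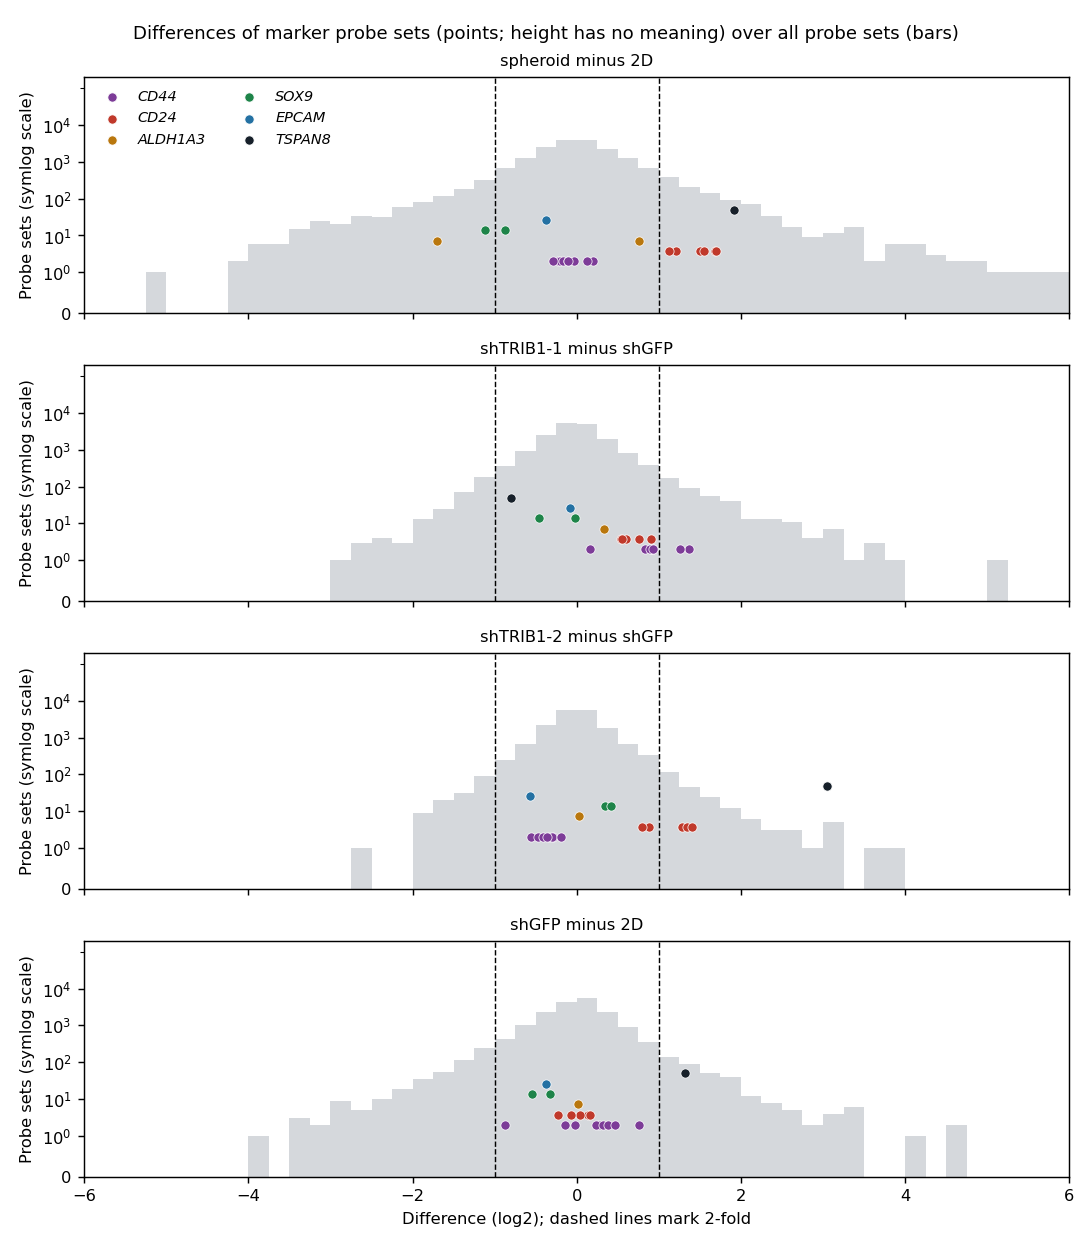
Log2 difference (horizontal axis, dashed lines at 2-fold) of the marker probe sets above the level filter, as coloured points by gene, over the histogram of all probe sets (grey bars, symlog count axis), for 4 comparisons. CD24 lies to the right in spheroid minus 2D and with both hairpins and near 0 in shGFP minus 2D, CD44 lies on opposite sides with the 2 hairpins, and TSPAN8 is at 3.05 with shTRIB1-2 and -0.81 with shTRIB1-1.

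Relatives and partners of the markers were taken from 7 gene lists. Their counts in spheroid minus 2D stand against 5.05% of 10570 genes at least 2-fold higher and 5.23% at least 2-fold lower. Other aldehyde dehydrogenases were mostly close to 0 in the spheroid array. Of 10 above the filter 2 were higher and 7 lower, 1 in each direction by 2-fold or more (10.0% each), and their median was -0.13. ALDH3B1 differed by 1.17, and ALDH7A1, an enzyme of lysine breakdown, was at 8.11 in the spheroid array and 10.07 in 2D, a difference of -1.97. Its level on the hairpin arrays was 10.04 with shTRIB1-1 and 10.58 with shTRIB1-2, against 10.17 on shGFP, so it was low in the spheroid array alone, as ALDH1A3 was. With the hairpins ALDH6A1 had the highest mean difference (0.97 with shTRIB1-1 and 0.08 with shTRIB1-2) and ALDH9A1 the lowest (0.10 and -0.53). All 5 other SOX genes above the filter were lower in the spheroid array, none 2-fold, with a median of -0.20, where 5376 of 10570 genes were lower and the median of all was -0.01. SOX7 had the lowest difference, -0.80, and SOX15 the highest, -0.04. With the hairpins SOX4 had the highest mean difference at 0.15 and SOX15 the lowest at -0.42. SOX15 read 6.79 on shGFP, 6.32 both in 2D and with shTRIB1-1, and 6.42 with shTRIB1-2.

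Polycomb repressive complexes fall into the ubiquitin ligase complex, to which BMI1 belongs, and the histone methyltransferase complex. Their subunits had 18 measured genes. In spheroid minus 2D, 1 (5.56%) was higher and 3 (16.7%) were lower by 2-fold or more, beside 5.05% and 5.23% of all genes, and the median was -0.13. EZH2, a catalytic subunit of the methyltransferase complex, stood at 7.78 in the spheroid array and 9.33 in 2D, a difference of -1.56, whereas its paralogue EZH1 stood at 7.58 in the spheroid array and 6.52 in 2D, a difference of 1.06. The 2 methyltransferases therefore lay on opposite sides. With the hairpins none was 2-fold different on both arrays, PCGF3 was highest (0.98 and 0.69) and EZH2 lowest (-0.38 and -0.36). PCGF3 read 7.25 on shGFP and 7.97 in 2D, beside 8.23 with shTRIB1-1 and 7.95 with shTRIB1-2. Its shTRIB1-2 level was thus close to that of 2D. Among 18 other tetraspanins above the filter, TSPAN1 was highest in the spheroid array, at 9.05 against 7.14 in 2D, a difference of 1.91. TSPAN2 read 4.64 in the spheroid array, below the filter, and 6.14 in 2D. With levels below 6 set to 6 its difference was -0.14, and TSPAN15, at 7.34 in the spheroid array and 8.04 in 2D, was lowest with -0.71. The tetraspanin median was 0.14. With the hairpins TSPAN2 had the highest mean difference (0.88 and -0.11) and TSPAN31 the lowest (-0.19 and -0.23). TSPAN8 had a mean of 1.12, from -0.81 with shTRIB1-1 and 3.05 with shTRIB1-2.

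The list of CD44 ligands, membrane anchors and splice regulators held 12 genes above the filter in the spheroid comparison, 3 of them lower by 2-fold or more, beside 5.23% of all genes, and none higher, and a median of -0.16. The hyaluronan receptor HMMR, which is also a mitotic spindle protein, had the lowest difference, at 7.81 in the spheroid array and 11.15 in 2D. HAS3, a hyaluronan synthase, was at 8.95 in the spheroid array and 11.32 in 2D. On the hairpin arrays HAS3 had the highest mean difference of the list, at 10.26 with shTRIB1-1 and 11.01 with shTRIB1-2, against 9.97 on shGFP. ADAM10, a protease that can shed CD44, was highest in the spheroid array (0.31) and differed by 0.75 and 0.56 with the hairpins. Among 6 EPCAM partners and cleaving enzymes none differed 2-fold in the spheroid array. The sheddase ADAM17 was highest at 0.80 and CTNNB1 (beta-catenin) lowest at -0.09. With the hairpins the gamma-secretase subunit PSEN2 was highest (0.62 and 0.34) and ADAM17 lowest (-0.05 and 0.02).

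Of 17 other stem and tumour-propagating markers above the filter, 2 were higher and 2 were lower by 2-fold or more in spheroid than in 2D (11.8% each, beside 5.05% and 5.23% of all genes), and the median was 0.00. KLF4, a transcription factor of pluripotency and epithelial differentiation, was at 10.01 in the spheroid array and 7.29 in 2D. The shGFP line was at 9.94, however, so KLF4 was low in 2D rather than high in the spheroid array alone. NES (nestin, a filament protein of neural progenitors) was at 5.30 in the spheroid array and 7.40 in 2D, and shGFP read 5.30 as well. Both 5.30 levels lie below the filter, and the spheroid minus 2D difference of NES was -1.40 with levels below 6 set to 6. With the hairpins, NT5E (CD73, an ectonucleotidase and mesenchymal stromal marker) was the 1 gene of 16 at least 2-fold higher on both arrays, where 0.361% of 10522 genes were. Its level was 8.12 with shTRIB1-1 and 7.47 with shTRIB1-2, against 6.30 on shGFP, and it was 9.53 in the spheroid array and 7.38 in 2D. The shTRIB1-2 level was thus close to that of 2D. ITGB4, the laminin receptor subunit, was lowest with the hairpins, at 8.19 with shTRIB1-1 and 8.66 with shTRIB1-2, against 9.26 on shGFP. It read 10.21 in 2D, so its shGFP minus 2D difference was itself -0.95.

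For the markers that spanned at least 1 on the log2 scale over the arrays by their lead probe set, the genes of most similar pattern were found by the root mean square difference of levels, each centred on its own mean over the 5 arrays, among 10837 genes above the filter. With 5 arrays this is a description of these samples alone. GPC4, a glypican (a heparan sulphate proteoglycan of the cell surface), lay closest to CD24, at 0.077. It read 9.10 in the spheroid array and 7.68 in 2D, and 8.18 with shTRIB1-1 and 8.88 with shTRIB1-2, against 7.72 on shGFP. The inositol transporter SLC5A3 (0.15) and LINC00667 (0.16) followed. Closest to ALDH1A3 were PODXL (0.13), which encodes the sialomucin podocalyxin, the matrix protein gene TNC (0.19) and PCLO (0.19). PODXL read 8.65 in the spheroid array and 10.10 in 2D, and 10.70 with shTRIB1-1 and 10.20 with shTRIB1-2, against 10.46 on shGFP. The nearest genes to TSPAN8 were SDC2 (syndecan-2, another heparan sulphate proteoglycan) at 0.44, IGFBP5 at 0.50 and NR2F1 at 0.58. These distances are larger, but levels were centred and not scaled, and TSPAN8 had the widest range over the arrays. Distances can therefore not be compared between markers, and whether fewer genes share the TSPAN8 pattern was not tested. IGFBP5, an insulin-like growth factor binding protein, read 9.36 with shTRIB1-2 and 4.14 with shTRIB1-1, a level below the filter, against 6.31 on shGFP. It was also below the filter in 2D, at 4.32. SDC2 was below the filter in 2D (4.86), with shTRIB1-1 (5.01) and on shGFP (5.36). TSPAN8 itself was below it in 2D and with shTRIB1-1. The likeness of SDC2 and IGFBP5 to TSPAN8 thus rests partly on levels not clear of background.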

How the data were processed

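Messenger RNA was measured in 5 PC-3 samples, 1 array each, grouped by their labels. The deposited table holds linear intensities, 1 per probe set and array, as its range shows. The authors obtained them with RMA, per the submitters' processing notes, whose version and chip file are not stated there. RMA includes quantile normalization, which hides a change that moves most genes 1 way. Arrays have no sequencing depth, and their number limits the precision.

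Log2 was taken with no pseudocount. Of 54675 probe sets, 41097 had 1 symbol in the platform annotation (19775 genes), 1801 several and 11777 none; those with several or none were left out. Entrez identifiers of 41043 matched RefSeq, which updated 0 symbols. A probe set entered a comparison at a level of 6 on any compared array. Spheroid was set against 2D without a test. The arrays labelled as TRIB1 hairpins were set against shGFP by limma 3.58.1 (R 4.3.3, intensity trend, Benjamini-Hochberg at 0.05 over 18252 probe sets) and by 2-fold counts. Related lists and similar genes were described by lead probe sets, naming the highest and lowest of each list and the 3 most similar genes. Members and lists were chosen with earlier results of these data known. Alternatives covered filters, centring, reference, probe set suffix, hairpin and limma settings.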

Additional observations from a re-analysis of the deposited data

How the results depend on the processing

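Single-gene differences kept their direction wherever they were at least 2-fold, except that TSPAN8 in shTRIB1 minus shGFP, 1.12 as a mean, was -0.81 without shTRIB1 replicate 2 and 3.05 without shTRIB1 replicate 1. Spheroid minus 2D was 1.44 for CD24, -1.71 for ALDH1A3 and 1.25 for TSPAN8 against the mean of shGFP and 2D; there 1 marker probe set, not 2, was 2-fold lower, as SOX9 no longer passed. ALDH1A3 was -0.47 as the median of its probe sets, which disagree. Without probe sets ending in _s_at or _x_at, which leaves CD24, SOX9, EPCAM and PROM1 unmeasured, 1 marker probe set was 2-fold higher and 1 lower. Over all probe sets, 1925 differed 2-fold in spheroid minus 2D, 1103 at a level filter of 8 and 1276 without _s_at and _x_at probe sets, where fewer were tested. On both hairpin arrays 77 differed 2-fold, 46 at a filter of 8 and 223 against the mean of shGFP and 2D, for which the cause was not tested. With 1 hairpin left out, 369 to 720 probe sets passed, and of the markers 2 to 4 were higher and 0 lower. Limma called 0 in all 9 settings run (smallest adjusted p 0.514 to 1.00; unadjusted p under 0.05 for 269 to 3563 probe sets). Limma with 1 hairpin left out had no residual degree of freedom and was not run. Setting levels below 6 to 6 for the difference between the hairpin arrays, for genes with several probe sets and for listed genes was chosen after seeing the data; it gave 7 marker probe sets lower with shTRIB1-2, not 8. No paired analysis was possible, because the labels record no pairing of samples and every group but shTRIB1 has 1 array. The signal limits PROM1, ALDH1A1 and SOX2, which were below a level of 6 throughout.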
